A study of Mus musculus with 39 samples.

Results

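The sites described here are places in the genome where the estrogen receptor (ER) was called under the combined hormone treatment and not with estradiol alone, at positions that the glucocorticoid receptor (GR) occupied with dexamethasone alone, and where ER was again called when the cells carried Afos. They were chosen from called ChIP-seq sites by 3 overlap conditions of at least 1 bp. A site of the 7438 ER list named for both hormones had to overlap no ER site of 7438 cells with estradiol (E2), had to overlap a GR site of 7438 cells with dexamethasone (Dex), and had to overlap an ER site with both hormones (Dex+E2) in at least 1 of the 2 replicate lists of 7438 Afos cells. This left 663 of the 11982 sites of that ER list (5.53%), called retained sites below. The 1232 sites that met the other conditions but had no ER Dex+E2 site in 7438 Afos are called unretained sites.

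7438 is a mouse mammary cell line with a GFP-tagged GR and a Cherry-tagged ER, both driven by a tetracycline-regulated promoter, and 7438 Afos carries Afos under such a promoter too. Tetracycline was withdrawn the day before hormone, and cells of both kinds were left untreated or received 100 nM Dex, 100 nM E2 or both for 30 min, so both tagged receptors were present in every group, controls included. Every combination of receptor and treatment is represented by 2 lists of called sites in 7438 Afos and by a single list in 7438. The labels do not say whether replicates were separate cultures, so spread between lists may be technical. The 7438 ER list that defines the sites is named for both hormones but filed under the untreated label, and the same exchange holds for the GR list named for both hormones; both are named here by their list names, and every statement of gain in 7438 rests on that reading. Taken by label instead, the ER list has 373 sites, of which 3 meet the 3 conditions.

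GR and ER are steroid-activated transcription factors: each binds DNA as a dimer after its ligand enters the cell, GR at glucocorticoid response elements and ER at estrogen response elements, and each can also be held at chromatin through other bound factors. GR recruits remodelling complexes and can open chromatin. AP-1, a dimer of Fos and Jun proteins, is known to keep many regulatory elements accessible in mammary cells, and A-Fos is the name of an engineered dominant-negative Fos that blocks AP-1 from binding DNA. What Afos stands for is not spelled out in the labels. The comparison asks at which GR sites ER binding appears when the second hormone is added and whether it is called again in cells with Afos.

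Lists held between 35 and 14160 sites and carry, for each site, the highest tag density, a signal of the authors whose scaling is not stated. It was therefore read as a percentile within its own list, or as a ratio within 1 pair of lists relative to all sites of that pair. Sites of 7438 were all 150 bp wide and those of 7438 Afos at least 251 bp. Read depth is unknown, because the lists hold no read totals. Intervals are exact (Clopper-Pearson) binomial 95% intervals and cover counting error only; sites are not replicates, and classes of sites are described without a test.

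Gain of ER at a GR site was frequent in 7438, and about 1 site in 3 of this kind was called again with Afos. Of the 11982 ER sites, 52.6% overlapped an ER site with E2 and 25.2% a GR site with Dex. Among the 5684 without an ER E2 site, 1895 (33.3%) lay at a GR Dex site, and 663 of these 1895 (35.0%, interval 32.8 to 37.2%) were retained. Among the 3789 gained ER sites without a GR Dex site the retained share was 33.3%. Over the whole ER list, 41.8% of sites overlapped an ER Dex+E2 site in at least 1 list of 7438 Afos. At sites already called with E2 this share was 41.5% with a GR Dex site and 50.7% without one. Gained sites were thus called again less often than the list as a whole. The retained counts follow from the conditions themselves, and none of these shares carries a test.

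The 2 replicate ER Dex+E2 lists of 7438 Afos contributed very unequally. Replicate 1, with 5905 sites, held 650 retained sites, and replicate 2, with 2564 sites, held 306. Of the whole 7438 ER list, 41.3% overlapped the first and 20.2% the second. Both lists held 293 retained sites (44.2%), replicate 1 alone held 357 and replicate 2 alone 13. Without replicate 1 there would be 306 retained sites, and without replicate 2 there would be 650. The 293 sites in both lists had a median ER tag density of 29.2 in 7438, against 18.8 for the 357 found in replicate 1 alone. Their median GR tag density with Dex was 46.6, against 41.3. Sites seen in both lists thus had the higher ER density, with GR medians lying closer together.

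**Figure D1:**
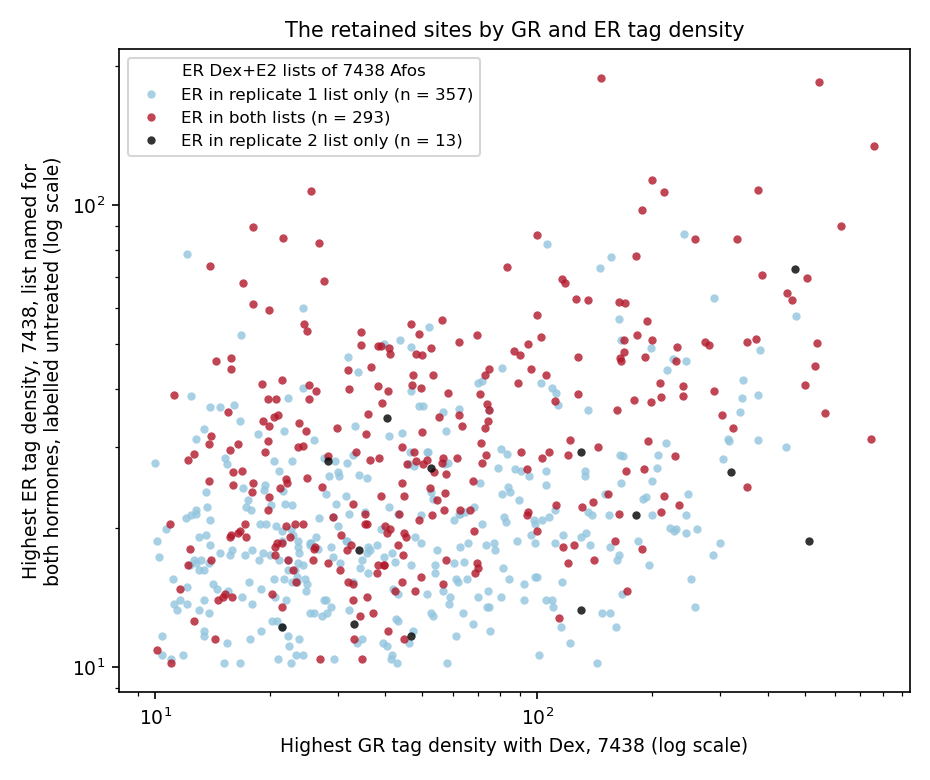
Each point is 1 of the 663 retained sites, placed by its highest GR tag density with Dex (horizontal, log scale) and its highest ER tag density in the 7438 list named for both hormones and labelled untreated (vertical, log scale). The 293 sites called in both 7438 Afos lists (red) lie mostly higher on the ER axis, with a median of 29.2, than the 357 called in replicate 1 alone (pale blue), with a median of 18.8.

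Retained sites were of middle to high ER density and high GR density within the lists that define them. ER density in 7438 ran from 10.2 through a median of 21.9 to 188, the median standing at percentile 61.0 of the list. Unretained sites had a median of 14.2 (percentile 31.4), and ER sites already called with E2 at a GR Dex site had 33.5 (percentile 79.0). GR density with Dex ran from 10.0 through 44.1 (percentile 79.9) to 759, against a median of 39.7 (percentile 76.9) for unretained sites. In 7438 Afos the median ER density of retained sites was 17.1 in replicate 1 (percentile 59.3) and 10.9 in replicate 2 (percentile 47.9). Across retained sites, ER and GR density in these 2 7438 lists had a Spearman correlation of 0.32 (n = 663), and ER density in 7438 had 0.55 with each 7438 Afos ER list (n = 650 and 306). These points share the cell line, local chromatin and list thresholds.

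The share of gained ER sites that was retained followed ER density and moved little with GR density. When the 1895 candidates were divided into 5 classes of about equal size by ER density in 7438, 11.4% were retained in the lowest class, then 17.7%, 31.8% and 42.0%, and 71.8% in the highest. Divided by GR density with Dex, the 5 classes gave 30.1%, 36.2%, 35.5%, 33.2% and 39.8%. Both densities come from lists that define the sites, so these shares are a description. Within class 3 of ER density, counted from the lowest, retained sites had a lower median GR percentile with Dex in 7438 than unretained ones (70.5 against 81.5), and within class 4 it was 79.3 against 88.6. In the highest class the medians were 87.5 and 89.3.

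**Figure D2:**
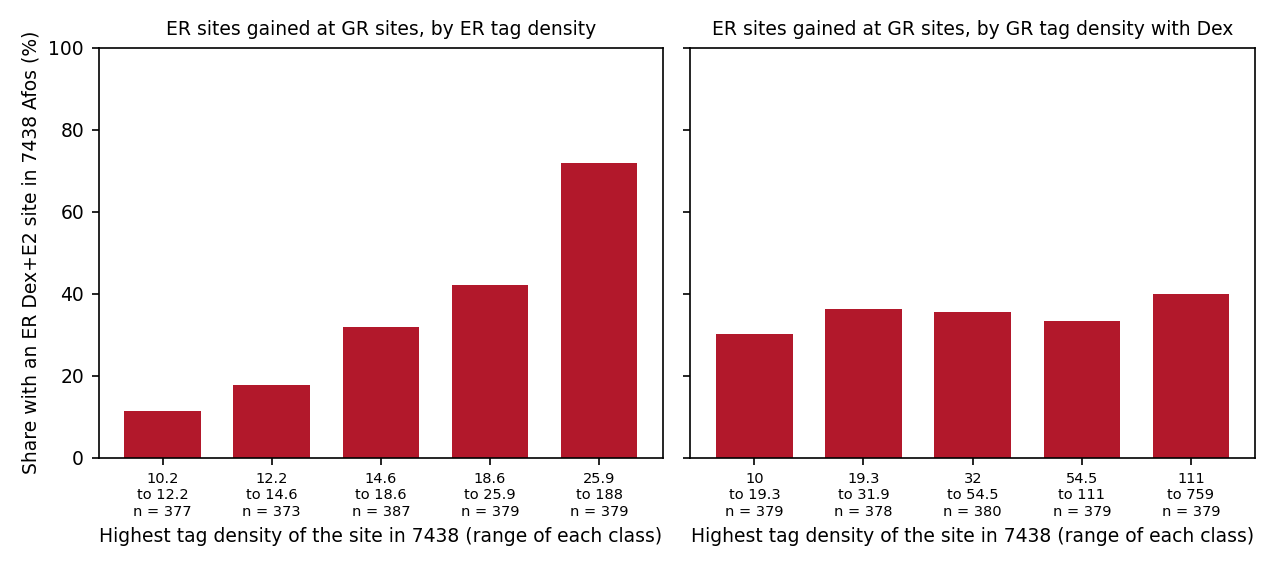
Bars show the share (%) of the 1895 gained ER sites at GR Dex sites that had an ER Dex+E2 site in 7438 Afos, in 5 classes of ER tag density (left) and of GR tag density with Dex (right) in 7438, with the density range and number of sites under each bar. The bars climb from 11.4% to 71.8% with ER density and stay between 30.1% and 39.8% with GR density.

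Few sites lay near the overlap and distance limits of the 2 conditions on other ER lists. Even so, 357 and 13 retained sites met the last condition in replicate 1 or replicate 2 alone. The weakest retained sites stood at the lower limit of the 7438 ER list (10.2), and in 7438 Afos replicate 1 had lowest ER densities of 5.04, 5.84 and 6.76, and replicate 2 of 4.11, 4.62 and 5.12. In 638 of 663 sites the whole 150 bp lay inside the 7438 Afos ER site, and the smallest overlap was 27 bp. Overlap with the GR Dex site of 7438 was less complete, with centres up to 143 bp apart and a 90th percentile of 68.8 bp. With at least 50% of the 7438 ER site covered in every overlap, 614 sites were retained. Just outside, 37 of the 1232 unretained sites lay within 500 bp of an ER Dex+E2 site of 7438 Afos, the nearest at 14 bp. The unretained sites of highest ER density reached 66.7, 62.1 and 54.1. On the other side, 36 retained sites lay within 500 bp of an ER E2 site of 7438, the nearest at 14 bp, while the median distance to one was 32744 bp.

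GR occupied nearly every retained site in 7438 Afos cells when both hormones were present, and most of them with Dex alone. With Dex+E2, GR was called at 662 of 663 sites in replicate 1 and at 661 in replicate 2, where 46.2% and 35.6% of the whole 7438 ER list had GR. With Dex alone, GR was called at 615 sites in replicate 1 (92.8%, interval 90.5 to 94.6%) and at 518 in replicate 2 (78.1%, 74.8 to 81.2%), where the whole list had 20.2% and 14.6%. At unretained sites the shares were 70.0% and 54.4% with Dex, and 72.2% and 77.4% with Dex+E2, lower than at retained sites in each of the 4 lists. The rule asked for a GR Dex site in 7438, so GR in 7438 Afos with Dex is a second measurement of the same binding in other cells.

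The higher GR presence at retained sites held in each of the 5 classes of ER density. With Dex in replicate 1 it was between 90.9% and 95.9% at retained sites and between 62.9% and 79.4% at unretained ones. In replicate 2 the ranges were 72.1% to 80.1% and 43.1% to 66.4%. Retained sites lay above unretained ones in all 5 classes of both replicates. No test of this difference was made, since the replicate lists number 2.

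Without Dex, GR was almost never called at these sites, in lists that were short. In 7438 Afos, the GR lists of untreated cells held 95 and 315 sites in all. Those with E2 held 490 and 146, against 8873 and 5136 with Dex. In untreated 7438 Afos cells GR had 0 retained sites in replicate 1 and 1 in replicate 2, against 0.384% and 0.985% of the whole ER list. With E2 alone GR had 0 retained sites in both replicates, against 3.89% and 0.985% of the whole list. The 1 site with GR in an untreated list lay on chromosome 3 (mm9, 21862329 to 21862479). Its GR density there was 16.0, and it had 106 and 29.4 with Dex and 116 and 107 with Dex+E2. In 7438, no retained site overlapped the GR list with E2 (1.83% of the whole ER list), and the same chromosome 3 site was the only one in the GR list named for untreated cells (0.718% of the whole list).

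As mean shares over lists, GR was present at 85.4 ± 10.3% of retained sites with Dex (SD, n = 2) and at 0.0754 ± 0.107% in untreated cells, a difference of 85.4 percentage points. With Dex+E2 the share was 99.8 ± 0.107%, which is 14.3 points above Dex alone, with 7.09 in replicate 1 and 21.6 in replicate 2. Lists of both treatments did not overlap in either comparison, nor did they for the whole 7438 ER list. GR was at 0.384% and 0.985% of that list in untreated cells, at 20.2% and 14.6% with Dex, and at 46.2% and 35.6% with Dex+E2. The conditions asked for GR with Dex in 7438 and ER with Dex+E2 in 7438 Afos. Both differences are thus not independent of the choice of sites. For the retained sites, two-sided exact permutation tests gave p = 0.333 for each comparison (adjusted p = 0.444 over 4 tests), the smallest p that 2 lists against 2 can give. For E2 against untreated the shares were 0 ± 0% and 0.0754 ± 0.107% (exact permutation p = 1.00, adjusted p = 1.00, n = 2).

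**Figure D3:**
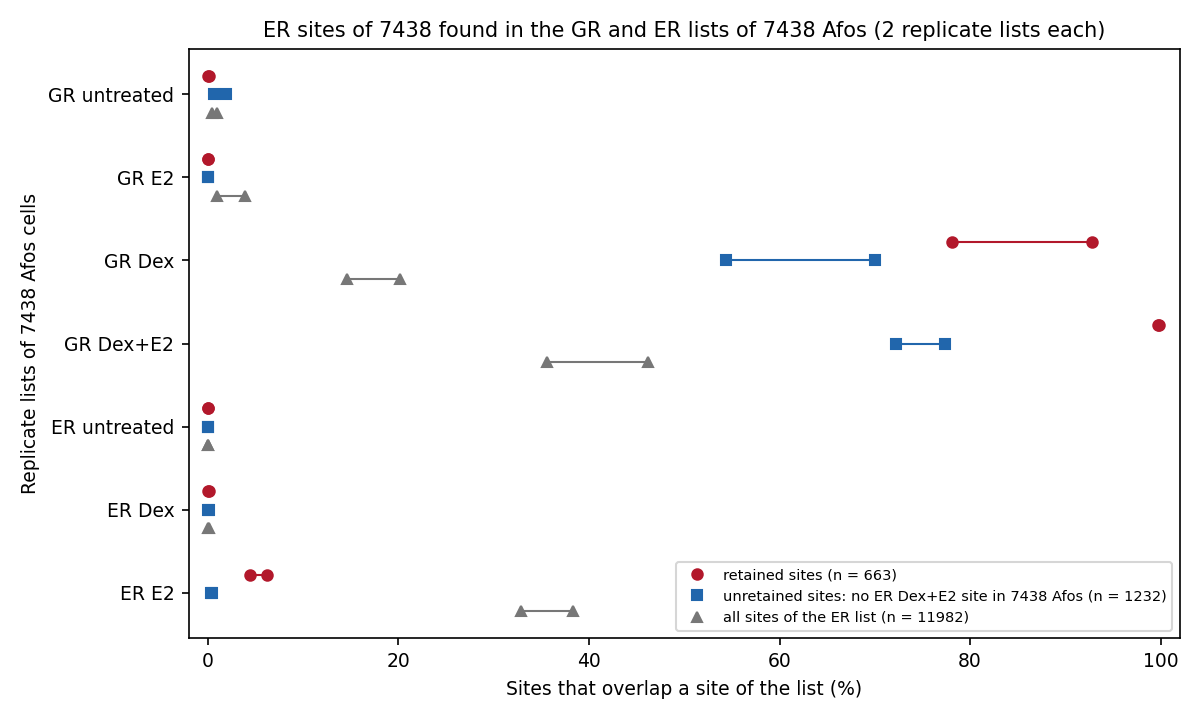
Each point is the share (%) of sites that overlap a site in 1 replicate list of 7438 Afos, for the retained sites (red), the unretained sites (blue) and all 11982 sites of the 7438 ER list (grey); lines join the 2 replicate lists. GR with Dex+E2 covers 99.8% and 99.7% of retained sites, and ER with E2 covers 6.18% and 4.37%.

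Only 2 retained sites lacked GR in a Dex+E2 list of 7438 Afos, and they were singled out after their values were seen. Both ranked low for GR in the 7438 list named for both hormones (percentiles 12.8 and 4.24). They also ranked low for ER with Dex+E2 in replicate 1 of 7438 Afos (8.98 and 19.4). In the 7438 ER list they stood at percentiles 55.4 and 37.4. The site on chromosome 13 (99435457 to 99435607) had GR in neither list, GR densities of 10.7 with Dex and 11.3 in the list named for both hormones in 7438, an ER density of 19.9 in 7438 and an ER density of 8.26 in 1 list of 7438 Afos. It was also an ER site with E2 in replicate 1 of 7438 Afos (9.81). The site on chromosome 14 (58589180 to 58589330) had GR with Dex+E2 in replicate 1 (22.7, percentile 70.3) and not in replicate 2.

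At 46 retained sites GR was in neither Dex list of 7438 Afos although it was called with Dex in 7438. These sites were weak GR sites with Dex in 7438, with a median density of 15.6 (percentile 32.1) against 47.7 (percentile 82.0) for the 617 sites that were in at least 1 list. Their ER density was similar, with medians of 22.7 and 21.9. With Dex+E2, 45 of the 46 had GR in each 7438 Afos list, at median percentiles of 75.9 and 57.2. The 617 others stood at 93.6 and 89.2. Thus sites without a GR call under Dex in 7438 Afos were called with both hormones and ranked below the other retained sites.

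GR tag density was higher with both hormones than with Dex at retained sites, relative to GR sites as a whole. In replicate 1 of 7438 Afos, the median log2 ratio of GR density, Dex+E2 over Dex, was 0.48 at the 615 retained sites with GR in both lists (quartiles 0.10 and 0.89), -0.05 at all 7816 GR Dex sites that were also in the Dex+E2 list, and -0.21 at 798 unretained sites. In replicate 2 it was 0.70 at 518 retained sites (quartiles 0.49 and 1.01), 0.46 at all 4935 GR sites and 0.51 at 667 unretained sites. Retained sites thus stood 0.53 and 0.24 above all GR sites on the log2 scale, a mean of 0.38 ± 0.20 (SD, n = 2), and unretained sites -0.16 and 0.05. Above the median of all GR sites lay 85.5% and 77.8% of retained sites. GR Dex sites that already had ER with E2 in 7438 had medians of 0.12 and 0.79, so they lay below the retained sites in replicate 1 and above them in replicate 2. Higher values were also found at gained ER sites that had no GR Dex site in 7438 but were called for ER again in 7438 Afos, at 1.04 (119 sites) and 0.31 (47 sites) above all GR sites. All sites of the 7438 ER list with GR in both lists stood 0.14 (2284 sites) and 0.18 (1741 sites) above. A raised ratio was thus not limited to the retained sites.

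The ratio was larger at sites that GR held weakly with Dex, at retained and unretained sites alike. Dex density is the denominator of the ratio, so dividing sites by Dex density itself favours that order. Retained sites exceeded unretained ones in the same density range. Medians by range are given relative to all GR sites of any density, not to GR sites of that range. Among sites below the retained sites' median Dex density, the median relative to all GR sites was 0.88 for retained and -0.08 for unretained sites in replicate 1, and 0.50 and 0.13 in replicate 2. Among sites at or above it, retained sites stood at 0.18 and unretained ones at -0.23 in replicate 1, against 0.11 and -0.02 in replicate 2. Retained sites with ER in both 7438 Afos lists had higher ratios than those with ER in replicate 1 alone, at 0.59 against 0.36 in replicate 1 and 0.78 against 0.60 in replicate 2. With ER density in 7438, however, the ratio had a Spearman correlation of only 0.04 in replicate 1 (n = 615) and 0.20 in replicate 2 (n = 518). The choice of sites used ER calls from cells given the same treatment, so the ratio is described without a test.

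In 7438 the same comparison was smaller. The GR list named for both hormones, labelled untreated, held 647 of 663 retained sites (97.6%, 96.1 to 98.6%) and 37.3% of the whole ER list. The log2 ratio of GR density in that list over Dex had a median of -0.42 at these 647 sites, -0.59 at all 7699 shared GR sites and -0.53 at 1163 unretained sites. Retained sites thus stood 0.18 above all GR sites, unretained sites 0.06, and GR Dex sites that already had ER with E2 stood 0.47 above. All 2880 shared sites of the 7438 ER list stood 0.22 above, with 72.2% over the median of all GR sites, so retained sites (66.2%) lay slightly below the list they come from. Among sites at or above the retained sites' median Dex density, retained sites did not stand above all GR sites (0.00), and unretained sites stood at -0.05. The GR Dex list of 7438 is 1 of the lists that define the sites.

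**Figure D4:**
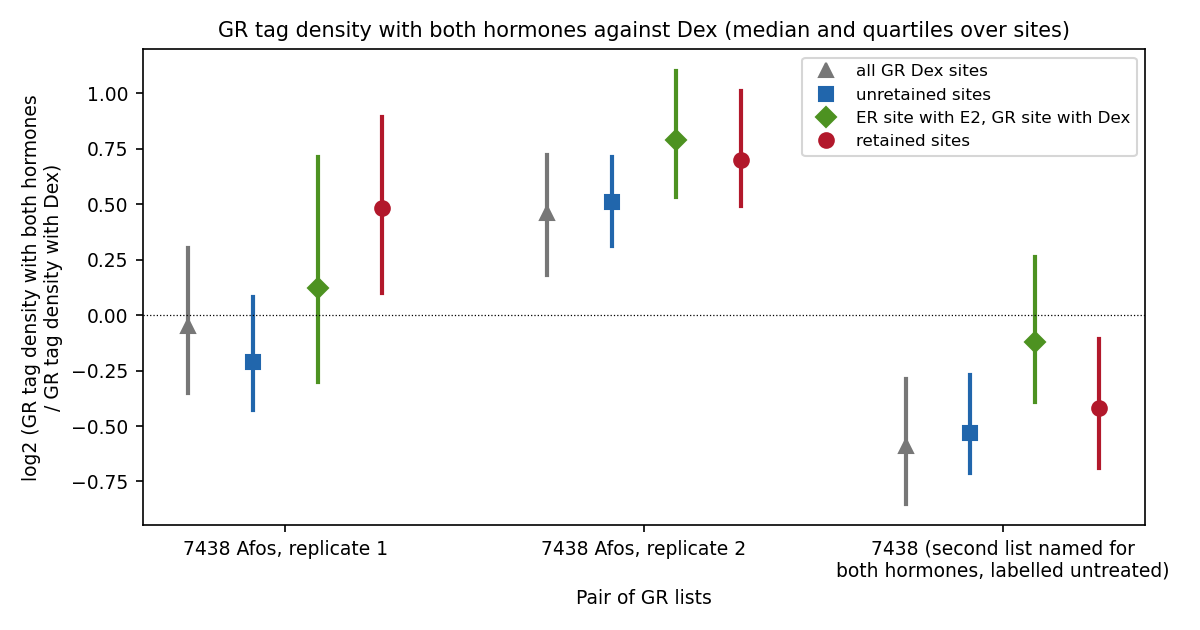
Points are medians and lines quartiles over sites of the log2 ratio of GR tag density with both hormones over Dex, in 3 pairs of GR lists. Retained sites (red) have medians of 0.48, 0.70 and -0.42, above all GR Dex sites (grey) at -0.05, 0.46 and -0.59 in each pair; unretained sites (blue) lie at -0.21, 0.51 and -0.53, and ER sites called with E2 at GR Dex sites (green) at 0.12, 0.79 and -0.12.

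ER was called at very few of the retained sites in lists without E2, and at few sites of the whole 7438 ER list. In 7438 Afos, the untreated ER lists held only 35 and 49 sites in all, and the ER Dex lists 61 and 41. In untreated 7438 Afos cells no retained site had ER in either list, against 0% and 0.0334% of the whole 7438 ER list. With Dex, ER was at 1 retained site in replicate 1 and at 0 in replicate 2, against 0.108% and 0.0334%. In 7438, the ER list named for untreated cells held 0 retained sites and 1.71% of the whole list. The ER list of 7438 with Dex, although it has 10149 sites, held 17 retained sites (2.56%, 1.50 to 4.07%), against 1.22% of the whole list and 3.08% of unretained sites.

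Of the 17 sites that ER also held with Dex in 7438, 16 stood at or above percentile 90 of the GR Dex list. The lowest stood at 68.7, and the 17 were singled out after their values were seen. All 663 retained sites had a median of 79.9 and an upper quartile of 93.9 in that list, so many others also passed percentile 90. The largest ER density with Dex alone, 173, was on chromosome 2 (157947539 to 157947689), where ER density in the list named for both hormones was 51.2 and GR density with Dex was 199. The site on chromosome 3 (122009455 to 122009605) was the one retained site with ER in a Dex list of 7438 Afos, at 10.3. It had 15.2 with Dex and 24.6 in the list named for both hormones in 7438.

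E2 alone brought ER to few of these sites in 7438 Afos either, although E2 sites of 7438 Afos were not part of the conditions. ER with E2 was called at 41 retained sites in replicate 1 (6.18%, 4.47 to 8.30%) and at 29 in replicate 2 (4.37%, 2.95 to 6.22%), against 38.3% and 32.9% of the whole 7438 ER list. The mean share was 5.28 ± 1.28% with E2 and 0 ± 0% in untreated cells (n = 2), a difference of 5.28 points (two-sided exact permutation p = 0.333, adjusted p = 0.444). In at least 1 list, 44 retained sites had ER with E2 (6.64%, 4.86 to 8.81%), against 6 of 1232 unretained sites (0.487%, 0.179 to 1.06%). Both classes leave out ER E2 sites of 7438 by rule, and the whole list does not.

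The 44 retained sites with ER under E2 in 7438 Afos were stronger ER sites and lay closer to ER E2 sites of 7438. Of these 44, 38 had ER with Dex+E2 in both 7438 Afos lists, compared with 255 of the other 619. Their median ER density in 7438 was 28.5, against 21.7, while GR density with Dex was alike (44.4 and 44.1). An ER E2 site of 7438 lay within 500 bp of 14 of the 44 and of 22 of the 619. At those 14 sites ER was thus called with E2 in 7438 too, beside the retained site and not on it.

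GR ranked higher than ER at most retained sites when both hormones were present. In 7438 Afos the GR percentile exceeded the ER percentile at 643 of the 649 sites with both receptors in replicate 1, and in replicate 2 this held at 298 of 306, by a median of 29.2 and 38.4 percentile points. In the 7438 lists named for both hormones this was so at 457 of 647, by 10.4 points. The lists differ in length, which moves percentiles. These counts are given for retained sites only, which were chosen for GR with Dex. The medians that follow are not paired by site: each is over the sites where that receptor was called. Median percentiles of the whole 7438 ER list also had GR above ER in 7438 Afos. They were 66.4 against 59.0 in replicate 1 and 64.9 against 53.5 in replicate 2. In the 7438 lists named for both hormones, unretained sites had 74.1 for GR against 31.4 for ER. ER sites already called with E2 at a GR Dex site had ER above GR there (79.0 against 73.7) and in both replicates of 7438 Afos. Of these 1119 sites, ER was called at 454 and 332 in 7438 Afos with Dex+E2, and GR at 769 and 842. At retained sites, GR with Dex+E2 in 7438 Afos had median densities of 56.8 (percentile 92.9) and 40.8 (percentile 88.3). At ER sites already called with E2 at a GR Dex site, GR had 24.9 (percentile 73.9) and 23.0 (percentile 71.5).

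ER and GR were called at nearly the same position. The centres of the 150 bp ER and GR Dex sites in 7438 were a median of 19.0 bp apart, and 419 of 663 pairs (63.2%) lay within 25 bp. For the GR list named for both hormones the median was 14.0 bp and 468 of 647 (72.3%) lay within 25 bp. Unretained sites had medians of 18.0 and 16.0 bp, and ER sites already called with E2 had 23.0 and 18.0 bp. Overlap limits these distances to less than 150 bp.

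Retained sites lay on every autosome and on chromosome X. Chromosome 2 held the most, with 77 (11.6% of retained sites, against 8.51% of the whole ER list), followed by chromosome 8 with 55 (8.30% against 5.97%). Chromosome 11 held 41 (6.18% against 8.64%) and chromosome 14 only 8 (1.21% against 2.63%). On chromosome X, 9 of 73 ER sites were retained (12.3%), compared with 5.53% over all chromosomes. Retained sites had to be GR Dex sites of 7438, and chromosome X held 1.34% of those and 1.36% of retained sites. Of the GR Dex sites of 7438, chromosomes 2 and 8 held 7.76% and 5.51%, and chromosomes 11 and 14 held 6.67% and 2.79%. Chromosomes X and 11 thus lay closer to their GR Dex shares than to their shares of the ER list. The median distance to the next retained site was 409258 bp. Another lay within 10000 bp of 64 sites and within 100000 bp of 183. These distances were not compared with those of other sites. In replicate 1 of 7438 Afos, 5 ER sites each contained 2 retained sites, so those 10 were not counted there as separate ER sites.

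The 10 strongest retained sites, by mean percentile over the lists that define them, differed from one another. Genes are not assigned here, since gene positions in mm9 were not used. GR density was higher with Dex+E2 than with Dex in both replicates of 7438 Afos at 9 of the 10, before any correction for the ratio of all GR sites. Over all GR sites the log2 ratio had quartiles of -0.35 and 0.30 in replicate 1 and 0.18 and 0.72 in replicate 2. In replicate 2 most GR sites were thus higher with Dex+E2. ER with E2 was in a list of 7438 Afos at 4 of the 10, compared with 44 of all 663. The first lay on chromosome 2 (167677250 to 167677400). Its ER density was 185 in the 7438 list named for both hormones and 109 and 40.7 with Dex+E2 in 7438 Afos, with 20.1 for E2 in replicate 1 only. Its GR density was 547 with Dex in 7438, 293 and 144 with Dex in 7438 Afos, and 372 and 273 with Dex+E2. GR was thus higher with both hormones in each replicate of 7438 Afos, and ER under E2 alone was called in 1 list at a low level.

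The second lay on chromosome 17 (28649853 to 28650003) and had the highest GR density of the 7438 list with Dex, 759. ER density there was 134 in 7438 and 96.3 and 33.9 in 7438 Afos with Dex+E2, and ER was in no E2 list. GR density in 7438 Afos was 621 and 360 with Dex and 634 and 434 with Dex+E2. At this site GR was already at the top of the list with Dex, and replicate 1 differed little between the treatments.

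The third, on chromosome 4 (138788398 to 138788548), was an exception to the absence of ER with E2. ER density in 7438 was 97.5, and in 7438 Afos it was 141 and 48.3 with Dex+E2 and 144 and 101 with E2 alone, the highest E2 values of any retained site. An ER E2 site of 7438 lay 433 bp away. GR density was 151 and 90.0 with Dex and 221 and 162 with Dex+E2. Here ER was called in both cell lines near the same place with E2, and the 150 bp sites of 7438 did not overlap.

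The fourth, again on chromosome 2 (157948802 to 157948952), had the highest ER density of the retained sites in 7438, 188; the whole list reached 652. ER density in 7438 Afos was 65.0 and 30.9 with Dex+E2, with no ER under E2. GR density in 7438 Afos went from 79.4 and 46.3 with Dex to 200 and 126 with Dex+E2, and it was 147 with Dex and 183 in the list named for both hormones in 7438. Both pairs of 7438 Afos lists gave more than a doubling.

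The other 6 follow in the order of their rank. On chromosome 6 (6192246 to 6192396) ER density was 62.5 in 7438 and 72.5 and 31.9 in 7438 Afos, and GR density went from 167 and 92.4 with Dex to 263 and 151. On chromosome 8 (129260490 to 129260640) ER density was 108 in 7438 and 64.9 and 20.9 in 7438 Afos, and GR density went from 251 and 140 to 271 and 202. Chromosome 7 held a pair of them. At 26566389 to 26566539, which lay 75 bp from an ER E2 site of 7438, ER density was 113.5 in 7438, 52.9 and 23.2 with Dex+E2 in 7438 Afos and 38.5 and 26.3 with E2 alone, and GR density went from 118 and 52.1 to 161 and 125. At 29161525 to 29161675 ER density was 107 in 7438, 45.4 and 23.9 with Dex+E2 in 7438 Afos and 13.9 with E2 in replicate 1, and GR density went from 106 and 62.5 to 179 and 139. The exception in GR density was on chromosome 2 (152611397 to 152611547), where ER density was 64.7 in 7438 and 58.3 and 24.1 in 7438 Afos. There GR density was 483 with Dex and 421 with Dex+E2 in replicate 1, and 263 with Dex and 343 with Dex+E2 in replicate 2. On chromosome 5 (123501103 to 123501253) ER density was 67.8 and then 64.4 and 24.8, and GR density went from 118 and 57.2 to 155 and 119.

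The retained sites of highest GR density with Dex+E2 in 7438 Afos differed widely in ER density. The chromosome 17 site at 28649853 to 28650003 came first. The next lay on chromosome 12 (101033158 to 101033308), with GR at 653 and 418 with Dex+E2 and 489 and 278 with Dex, and ER at 48.1 and 18.1. On chromosome 3 (122009455 to 122009605) GR reached 538 and 321 while ER was 34.3 and 7.57, and on chromosome 17 (56248175 to 56248325) GR reached 379 and 327 while ER was 29.2 and 8.66. The chromosome 2 site at 152611397 to 152611547 also belongs to these 5. At the chromosome 3 site GR was lower with Dex+E2 than with Dex in replicate 1 (538 against 590) and higher in replicate 2 (321 against 283).

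The 5 retained sites lowest in the 7438 ER list all stood at 10.2. ER was called with Dex+E2 in replicate 1 of 7438 Afos at all 5, with densities between 8.79 and 14.5, and in replicate 2 only at the one on chromosome 19 (16505110 to 16505260), at 5.91. The one on chromosome 5 (104463847 to 104463997) also had ER with E2 in both lists of 7438 Afos. The one on chromosome 9 (48545686 to 48545836) was a strong GR site, with 143 with Dex in 7438 and 97.0 and 88.4 with Dex+E2 in 7438 Afos. The other 3 had weaker GR with Dex in 7438. On chromosome 2 (118686698 to 118686848) it was 22.6, with GR called with Dex in replicate 2 of 7438 Afos only. On chromosome 12 (3995370 to 3995520) it was 15.1 and on chromosome 19 it was 11.0, with GR called with Dex in replicate 1 of 7438 Afos only.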

How the data were processed

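ChIP-seq against GR or ER had been performed on sonicated nuclei, per the labels' protocols. Of 39 samples, 24 had a list of called sites (8 of 7438, 16 of 7438 Afos); the other 15 were not analysed here. Per the submitters' processing notes, the build was mm9 and CASAVA 1.8 was used; no aligner, caller or threshold is given in these sources. Per the file headers, each site carries its highest tag density, a signal made by the authors with unstated scaling, and a z-score, the score deposited by the authors, which was not used in any result. Read depth is unknown. Coordinates are printed as deposited.

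From these lists, overlaps of at least 1 bp were called, and where several sites overlapped, that of highest density was taken. Shares of retained sites per list were compared by two-sided exact permutation over 2 lists a group, with Benjamini-Hochberg adjustment across the 4 tests. The overlap code was checked on simulated data. The retained sites, classes and tests were chosen with earlier results of these data known; the GR density ratios, the retained share and the division into 5 density classes, with their alternatives, were added after seeing the data. Named sites were the 10 of highest mean percentile over the lists of the rule, the 5 of highest GR percentile with Dex+E2 in 7438 Afos, and the 5 lowest in the 7438 ER list. Gene lists and motifs planned for the sites were not run, for want of mm9 sequence and annotation in this work. Alternatives were other overlap rules, a density limit, both lists, leaving out each replicate, the labels as given, sites called without hormone, and same-numbered lists as blocks. Python 3.11.15, NumPy 2.4.6, pandas 2.3.3, SciPy 1.17.1 and matplotlib 3.10.9 were used.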

Additional observations from a re-analysis of the deposited data

How the results depend on the processing

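The number of retained sites was 663; it was 318 with every list limited to its denser sites, from the median up, 293 when both ER Dex+E2 lists of 7438 Afos were required, 3 with the labels as given, and 306 to 650 when a replicate was left out. The 293 sites in both lists became 147 with the density limit and 3 with the labels as given. The retained share of gained ER sites at GR Dex sites (35.0%) became 37.5% with the density limit, 15.5% with both lists required, 3.75% with the labels as given, and 16.1 to 34.3% without a replicate. ER with E2 in 7438 Afos (6.64%) became 8.98% when sites within 500 bp counted as overlapping, 13.0% with both lists required and 100% of the 3 sites of the labels as given. ER with Dex in 7438 (2.56%) became 4.14% within 500 bp and 0% with the labels as given. GR in the 7438 list named for both hormones (97.6%) became 98.6% with both lists required, 33.3% with the labels as given (where the list labelled Dex+E2 was used), and 97.5 to 98.7% without a replicate. GR with E2 minus untreated in 7438 Afos (-0.0754 points) was 0 within 500 bp, with both lists required, without sites called without hormone and when either replicate was left out, and reversed to 16.7 points with the labels as given. The other 3 differences over lists kept their direction under every alternative run. The mean GR density ratio (0.38) stayed within 1 SD of its value, between 0.32 without replicate 1 and 0.54 without replicate 2. That SD comes from the same 2 replicate values, so leaving out either could hardly move the mean by more than 1 SD. With the labels as given too few sites were left to compute the ratio. With same-numbered lists as a replicate block the differences were 85.4, 14.3, -0.0754 and 5.28 points, and the block changed no call, since neither fit can pass the threshold with 2 lists a group; 2 pairs do not show whether the numbers pair the lists. The alternatives for the retained share and the GR density ratio were chosen after seeing the data. The cause of these changes was not tested. Windows of another width for motifs were not run, since motifs were not searched.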
